A study of Mus musculus with 12 samples.

Results

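The genes examined here encode the subunits, assembly factors and activators of the proteasome, the protease complex that degrades ubiquitin-tagged proteins. They were taken by symbol, as every row of the count table whose name begins with Psm followed by a letter from a to g and a number, which gave 49 of the 32227 genes listed. Psma8, the testis form of an alpha subunit, did not pass the count filter, and the other 48 were tested. Psmb8, Psmb9 and Psmb10, which encode the immunoproteasome subunits, were kept apart from the other 45 tested genes.

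The 20S core particle is a barrel of stacked rings, in which alpha subunits gate the channel and the beta subunits encoded by Psmb5, Psmb6 and Psmb7 cut the substrate. The 19S regulatory particle caps the barrel. Its base carries AAA ATPases that unfold substrates, and its lid carries the deubiquitinase encoded by Psmd14. Interferon-responsive cells and most haematopoietic cells can replace the constitutive catalytic subunits by those encoded by Psmb8, Psmb9 and Psmb10, which changes the peptides available to MHC class I molecules. The activator encoded by Psme1 and Psme2 opens the same barrel without ATP.

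Bulk RNA sequencing was carried out on basophil-lineage cells sorted from C57BL/6J WT mice, with 12 libraries in 4 groups of 3. Basophil progenitors (BaPs) were sorted from the bone marrow (BM) as CD200R3+ cKit- CLEC12Ahi CD34+ cells, pre-basophils, titled immature basophils in the labels, as CD34- CLEC12Ahi CD9lo cells, and mature basophils from the BM and, separately, the spleen as CD34- CLEC12Alo CD9hi cells. Each library was made from cells pooled from 4 animals, no group carried a treatment or an altered allele, and the labels give no age. P-values therefore measure the spread between pools.

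Library totals ran from 3596108 to 8151030 counts. The 9 basophil marker genes were present in every library, from 104 CPM (counts scaled to 1e+06 per library, on library sizes adjusted by the trimmed mean of M values) for Il3ra in its lowest library to 49580 for Prss34 in its highest. BaP replicate 3 stood apart. The summed level of 8 T and NK cell markers was 570 CPM there against 14.6 to 49.6 in the other 11 libraries, that of 6 erythroid markers 2400 against 8.84 to 260, and that of the basophil markers 25490 against 61980 to 71530 in the other BaP and pre-basophil libraries. Neutrophil markers summed to 1965 to 2411 CPM in the BaP, 996 to 2317 in the pre-basophil and at most 127 in the mature libraries. B cell markers summed to 200 to 342 CPM in the spleen, 43.6 to 57.8 in the BM mature and 39.7 to 55.5 in the pre-basophil libraries. In BaP replicates 1, 2 and 3 they summed to 40.1, 40.1 and 194 CPM. A list of 16 genes known to rise during cell dissociation, such as Fos and Jun, summed to 23930 to 32810 CPM in the BaP libraries, 47400 to 53810 in the pre-basophil, 100200 to 121400 in the BM mature and 120700 to 142100 in the spleen mature libraries, and so followed the stages. The part of these signals in the results below was not tested, and in bulk libraries fewer cells of a type and less RNA per cell cannot be told apart.

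Transcripts of the core and the 19S particle were more abundant in the CLEC12Ahi stages than in mature basophils, whereas the summed level of the immunoproteasome genes differed less between the groups. The 49 genes together reached 3143 ± 137 CPM in the BaP libraries (SD, n = 3 here and below), 3055 ± 118 in the pre-basophil, 2389 ± 51.9 in the BM mature and 2175 ± 31.1 in the spleen mature libraries. The 14 alpha and beta subunits of the standard core summed to 1398 ± 130, 1394 ± 70.7, 1047 ± 36.9 and 870 ± 3.58 CPM in the same order, and the 17 subunits of the 19S particle to 929 ± 58.1, 871 ± 46.9, 611 ± 24.2 and 617 ± 11.5. The lowest of the 6 BaP and pre-basophil libraries lay above the highest of the 6 mature ones in each of these sums. Psmb8, Psmb9 and Psmb10 summed to 244 ± 34.1, 233 ± 4.17, 229 ± 5.91 and 210 ± 6.58 CPM, with BaP replicate 3 as the highest library. Without that library the BaP sum of these 3 genes was 221 and 228 CPM, beside 222 to 233 CPM in BM mature basophils.

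**Figure D1:**
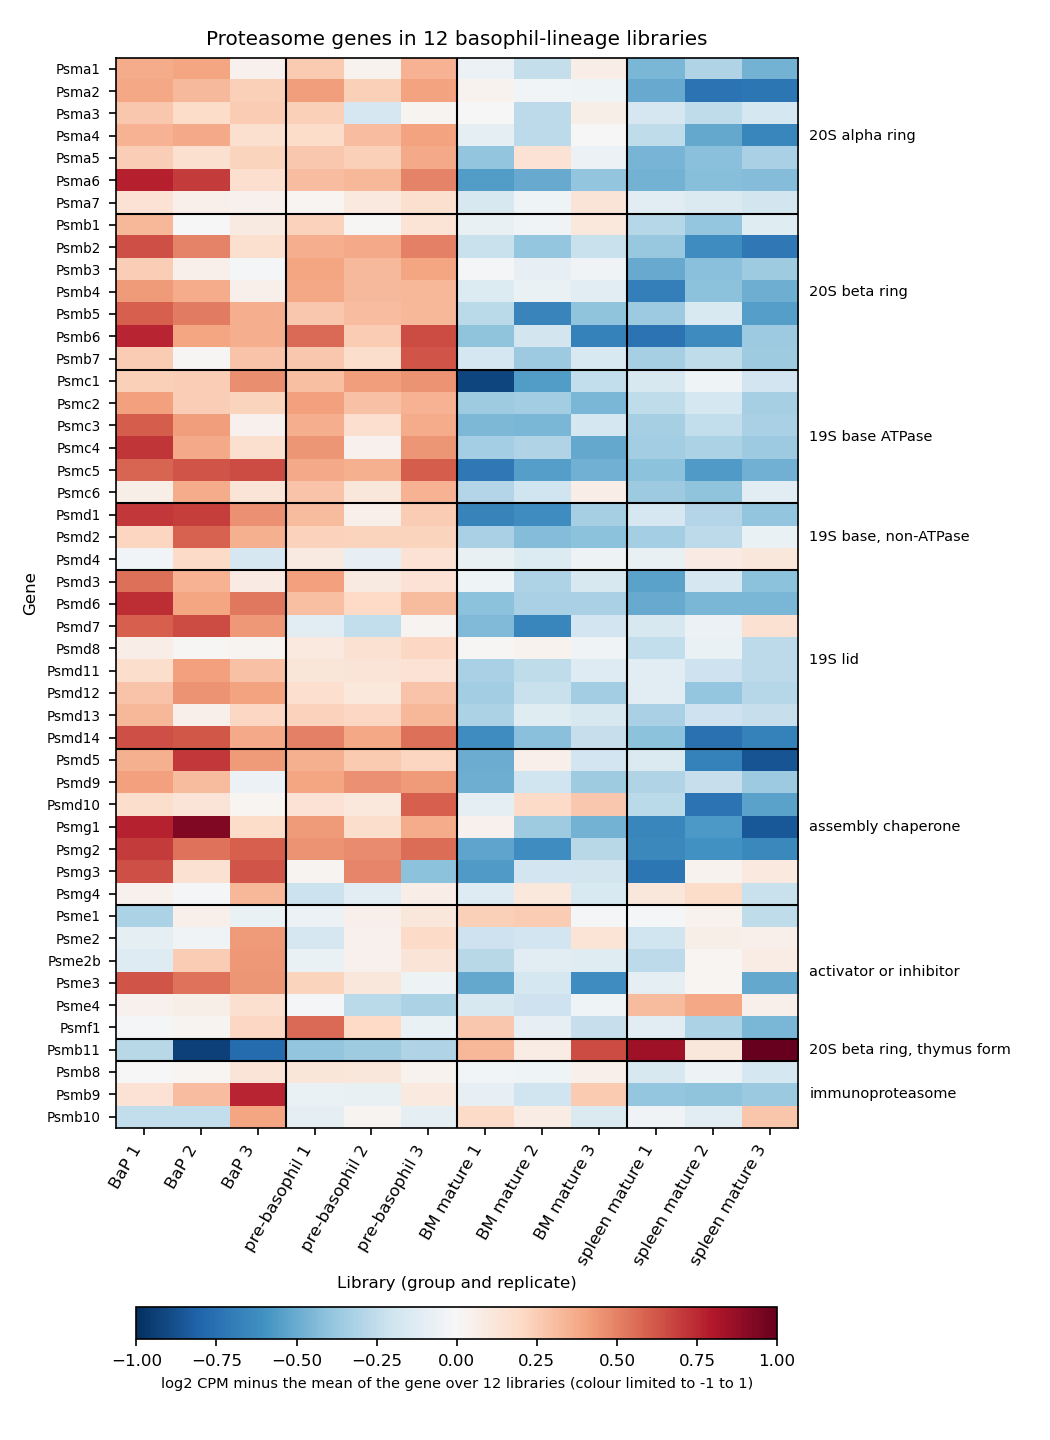
Levels of the 48 tested proteasome genes in the 12 libraries, 1 gene per row grouped by role and 1 library per column. Colour gives log2 CPM minus the mean of the gene over the 12 libraries, cut at -1 and 1. Most rows of the alpha ring, beta ring and 19S blocks are red in the 6 BaP and pre-basophil columns and blue in the 6 mature columns, while the immunoproteasome rows are paler, with BaP replicate 3 red for Psmb9 and Psmb10, and the Psmb11 row has the opposite colours.

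A difference among the 4 groups was called for 37 of the 48 tested members by edgeR's quasi-likelihood test at an adjusted p under 0.05, which is 77.1%, beside 57.8% of all 15083 genes tested. Those not called were Psma7, Psmb8, Psmb10, Psmd4, Psmd8, Psme1, Psme2, Psme2b, Psmf1, Psmg3 and Psmg4. Psmb9 was the immunoproteasome gene called (adjusted p 0.00489). Every one of the 6 BaP and pre-basophil libraries lay above every one of the 6 mature libraries for 26 of the 48 (54.2%), against 16.7% of all tested genes. The opposite arrangement was seen for 1 member (2.08%), Psmb11, against 11.6% of all tested genes. Psmb11, which encodes the catalytic subunit of cortical thymic epithelium, had 6.69, 4.24 and 4.74 CPM in the BaP libraries, 6.15, 6.33 and 6.56 in the pre-basophil, 10.2, 8.51 and 12.7 in the BM mature and 14.6, 8.75 and 16.5 in the spleen mature libraries. It was among the least abundant members, with 2.47 ± 0.500 CPM per kb of transcript in BM mature basophils. Psma8 was at or below 1.91 CPM in every library and at 0 in 5 of them, where a count of 0 allows at most 0.48 to 0.751 CPM.

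Levels of different members were compared per kb of transcript. This assumes that reads cover the whole transcript, and coverage was not examined. Psme1 had the highest mean in every group, although in BaPs its 159.9 ± 20.2 CPM per kb lay within the spread of Psmb4 at 156 ± 21.0. It stood at 176 ± 10.6 CPM per kb in the pre-basophil and 193 ± 19.5 in the BM mature libraries. In pre-basophils it was followed by Psmb4, a structural beta subunit, at 162 ± 3.88, and Psmb3 at 150.5 ± 4.04, apart from each other by more than their summed SD. In BM mature basophils Psma7, an alpha subunit, was next at 125 ± 12.8, with Psmb4 at 118 ± 2.92 within its spread. Psmb8 stood at rank 10 of 49 in pre-basophils and rank 6 in spleen mature basophils, with 85.7 ± 2.88 and 73.7 ± 3.44 CPM per kb. Its constitutive counterpart Psmb5 went from 67.8 ± 1.495 CPM per kb in pre-basophils to 40.7 ± 5.49 in BM mature basophils. The 6 ATPases of the 19S base all lay below 10 of the 14 core subunits per kb, from 50.7 ± 3.96 for Psmc3 to 20.5 ± 2.002 for Psmc5 in pre-basophils. In CPM not divided by length this order did not hold. Psmc3, at 82.9 ± 6.49 CPM in pre-basophils, then lay above Psmb5 at 60.95 ± 1.34.

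Pre-basophils were next compared with BM mature basophils, both sorted from the BM. Of the 48 tested members, 25 were called, all of them higher in pre-basophils and none lower. This share of 52.1%, by edgeR's quasi-likelihood test, stands beside 27.3% of all genes called, 16.3% higher and 11% lower in pre-basophils. The median log2 fold change was 0.40 over the tested members and -0.0044 over all genes tested. With library size alone as the scaling, the median of all genes moved to 0.22, and 82.5% of all called genes were higher in pre-basophils instead of 59.8%. That scaling called 35 members, all higher, beside 24.6% of all genes called higher. The median of the members stayed 0.41 above that of all genes under this and the other scalings tried. Of the members not called, 17 had positive and 6 negative fold changes. The lowest was Psmb11 (log2 fold change -0.73, SE 0.28, adjusted p 0.0659), followed by Psme1 at -0.13. With the replicate number as a block, which pairs the BM libraries, Psmb11 was called lower in pre-basophils (log2 fold change -0.72, adjusted p 0.0416), and so it was with that block in the BM libraries alone (-0.75, adjusted p 0.0390). Of the 25 calls, 17 held under all 22 alternatives tried, and Psma2, Psma4, Psmb4, Psmd11, Psme3 and Psmg1 were lost in at least 1 fit that left out a library. The summed dissociation list was lower in every pre-basophil library than in every BM mature library, and its part in these differences was not tested.

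**Figure D2:**
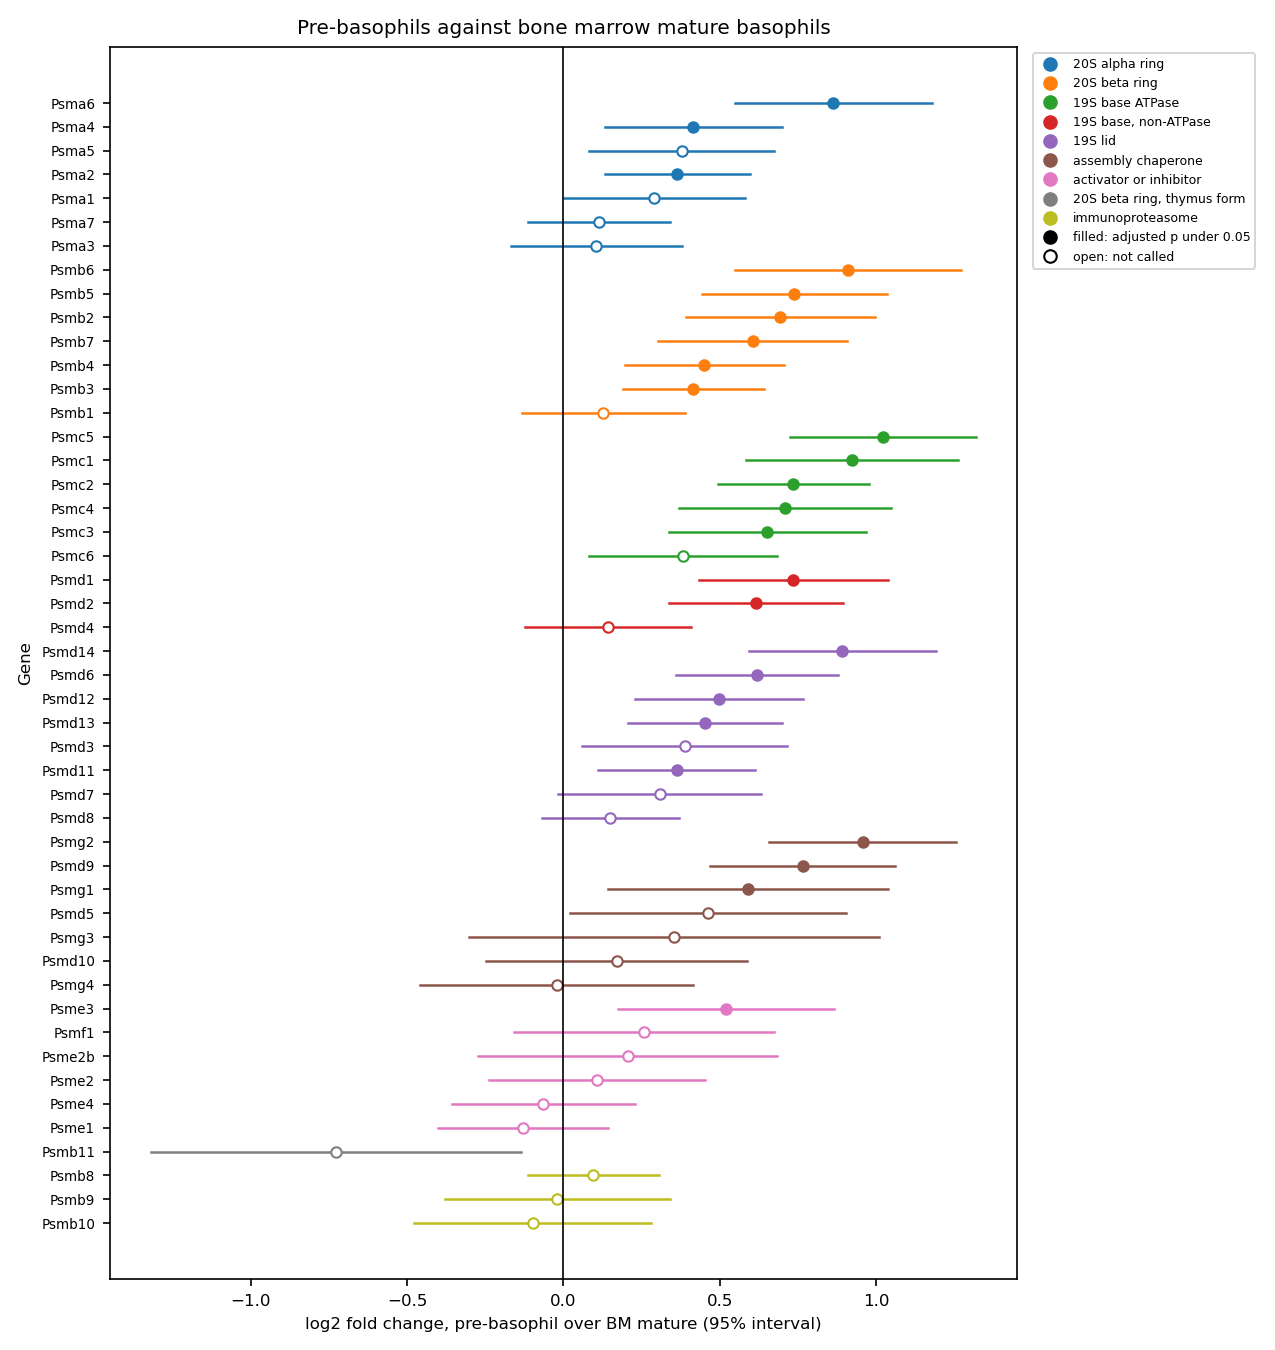
Log2 fold change of each tested proteasome gene in pre-basophils over BM mature basophils, grouped and coloured by role, with the 95% interval of the edgeR model as a line. Filled points passed an adjusted p of 0.05. The 25 filled points lie to the right of 0, from 0.36 for Psmd11 to 1.02 for Psmc5, and the 3 immunoproteasome genes lie within 0.10 of 0.

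The ATPases of the 19S base showed the highest median of the role classes, 0.72, with 5 of 6 called. The class counts here and below stand beside 16.3% of all genes called higher in pre-basophils. Psmc5 (GRCm38 chromosome 11, 106256154 to 106263120) had the highest fold change of all members. It was at 25.7, 25.3 and 30.1 CPM in the pre-basophil libraries, 12.1, 13.5 and 14.2 in BM mature, 29.6, 30.6 and 31.1 in BaP and 14.9, 13.4 and 14.2 in spleen mature libraries. The 6 mature libraries formed a narrow band below every CLEC12Ahi library, and the difference between pre-basophil and BM mature cells was 2.03-fold (log2 fold change 1.02, SE 0.14, adjusted p 0.000129). Psmc1 was at 32.7, 35.3 and 36.1 CPM in the pre-basophil and 14, 18.0 and 22.3 in the BM mature libraries, without overlap (log2 fold change 0.92, SE 0.16, adjusted p 0.000760). Psmc2 was at 55.1, 50.6 and 52.6 and 32.5, 32.5 and 30.1 CPM, with replicates closer together than those of Psmc1 in BM mature basophils (log2 fold change 0.74, SE 0.11, adjusted p 0.000342). Psmc3, the highest ATPase per kb, was at 86.4, 75.5 and 87.0 and 49.3, 49.1 and 59.5 CPM (log2 fold change 0.65, SE 0.15, adjusted p 0.00464). The remaining ATPases were Psmc4, called at 0.71, and Psmc6, at 0.38 with an adjusted p of 0.0579.

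Among the 19S base subunits without ATPase activity, Psmd1 and Psmd2, the large scaffold subunits that receive ubiquitin-like carriers, were both called. Psmd1 was at 41.6, 34.6 and 40.0 CPM in the pre-basophil and 21.0, 21.8 and 26.6 in the BM mature libraries (log2 fold change 0.74, SE 0.14, adjusted p 0.00158). The ubiquitin receptor gene Psmd4, the highest of the class per kb, was at 60.1, 53.6 and 62.5 and 53.8, 51.3 and 54.7 CPM, and its ranges overlapped (0.14, adjusted p 0.428). Of the 8 lid subunits, 5 were called with a class median of 0.42. Psmd14 (chromosome 2, 61711694 to 61800376), whose product removes ubiquitin chains before degradation, was at 61.8, 57.0 and 63.8 CPM in the pre-basophil, 28.3, 32.5 and 37.1 in the BM mature, 68.1, 66.7 and 56.6 in the BaP and 32.6, 25.9 and 27.2 in spleen mature libraries. Its 6 CLEC12Ahi libraries lay well above the 6 mature ones, and the fold change between pre-basophil and BM mature cells was 1.85 (log2 fold change 0.89, SE 0.14, adjusted p 0.000390). Psmd6 was at 44.7, 41.6 and 45.1 and 27.4, 29.0 and 29.0 CPM (log2 fold change 0.62, SE 0.12, adjusted p 0.00181). Psmd11, Psmd12 and Psmd13 were the other lid genes called, while Psmd3, Psmd7 and Psmd8 were not, and Psmd8, the highest lid gene per kb, had the lowest fold change of the lid at 0.15 (SE 0.10). The call of Psmd11, at 0.36, was lost without any 1 of the 3 pre-basophil libraries or BM mature replicate 1 or 2, with adjusted p up to 0.116.

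In the core, 6 of 7 standard beta subunits and 3 of 7 alpha subunits were called, with class medians of 0.61 and 0.36. Psma6 was at 113, 115 and 129 CPM in the pre-basophil and 62.1, 64.6 and 69.6 in the BM mature libraries, and had the highest fold change of the alpha ring (log2 fold change 0.86, SE 0.15, adjusted p 0.000684). Psma7, the highest alpha subunit per kb, was at 117, 124 and 129.5 and 103, 112 and 127 CPM with overlapping ranges (0.12, adjusted p 0.455). Psma2 and Psma4 were called at 0.36 and 0.42, and Psma1, Psma3 and Psma5 were not. The call of Psma2 was lost without pre-basophil replicate 1 or 3 or any 1 of the BM mature libraries, and that of Psma4 without any 1 of the pre-basophil libraries or BM mature replicate 1 or 2. In the beta ring, Psmb2 was at 72.7, 73.5 and 80.1 and 48.4, 43.3 and 48.3 CPM (log2 fold change 0.69, SE 0.14, adjusted p 0.00245). Psmb4, the highest of the ring per kb, was at 197, 188 and 189.7 and 137, 144 and 139.7 CPM (log2 fold change 0.45, SE 0.12, adjusted p 0.0118), and this call was lost without pre-basophil replicate 1 or BM mature replicate 1, with adjusted p of 0.0559 and 0.0530 for Psmb4. Psmb3 was called at 0.42, and Psmb1 was not, at 0.13.

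The 3 catalytic beta subunits were taken with their immunoproteasome counterparts, because each pair fills the same position of the ring. Psmb5, which encodes the chymotrypsin-like subunit, was at 74.5, 71.0 and 63.5 CPM in BaP, 59.5, 61.1 and 62.2 in pre-basophil, 41.1, 31.3 and 37.4 in BM mature and 38.4, 44.4 and 33.7 in spleen mature libraries. The lowest CLEC12Ahi library, at 59.5 CPM, lay above the highest mature library, at 44.4 CPM, with a fold of 1.67 between pre-basophil and BM mature cells (log2 fold change 0.74, SE 0.14, adjusted p 0.00131). Psmb8, which encodes the subunit that replaces it, was at 131, 133 and 144, 143, 142 and 134, 129, 127 and 136 and 117, 126 and 116 CPM in the same order of groups. The ranges of the BaP, pre-basophil and BM mature libraries overlapped, the spleen libraries lay just below them, and the log2 fold change between pre-basophil and BM mature cells was 0.10 (95% interval -0.11 to 0.31, adjusted p 0.504).

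Psmb6, which encodes the caspase-like subunit, was at 100.6, 78.0 and 76.3 CPM in BaP, 88.0, 70.8 and 93.1 in pre-basophil, 44.9, 52.3 and 37.3 in BM mature and 35.5, 38.4 and 46.2 in spleen mature libraries. No mature library reached the lowest CLEC12Ahi library, and pre-basophils exceeded BM mature basophils 1.88-fold (log2 fold change 0.91, SE 0.17, adjusted p 0.00127). Its counterpart Psmb9 was at 39.2, 43.8 and 59.8, 33.8, 33.6 and 37.9, 33.4, 30.8 and 42.3 and 27.0, 26.7 and 27.4 CPM. BaP replicate 3 was the highest library and the 3 spleen libraries the lowest, and pre-basophils and BM mature basophils overlapped (-0.02, 95% interval -0.38 to 0.34, adjusted p 0.949). Psmb7, which encodes the trypsin-like subunit, was at 48.5, 41.0 and 49.6, 48.9, 46.0 and 62.9, 36.0, 31.5 and 36.5 and 32.3, 34.2 and 31.7 CPM (log2 fold change 0.61, SE 0.14, adjusted p 0.00570 for pre-basophils against BM mature basophils), again without overlap between the CLEC12Ahi and the mature libraries. Psmb10, which takes its place in the immunoproteasome, was at 51.4, 51.4 and 80.0, 56.7, 62.1 and 56.9, 69.4, 64.1 and 55.04 and 59.4, 56.4 and 73.6 CPM, with BaP replicate 3 highest (-0.10, 95% interval -0.48 to 0.28, adjusted p 0.725). These intervals cover changes in both directions, and a p that misses the threshold does not show equal levels.

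**Figure D3:**
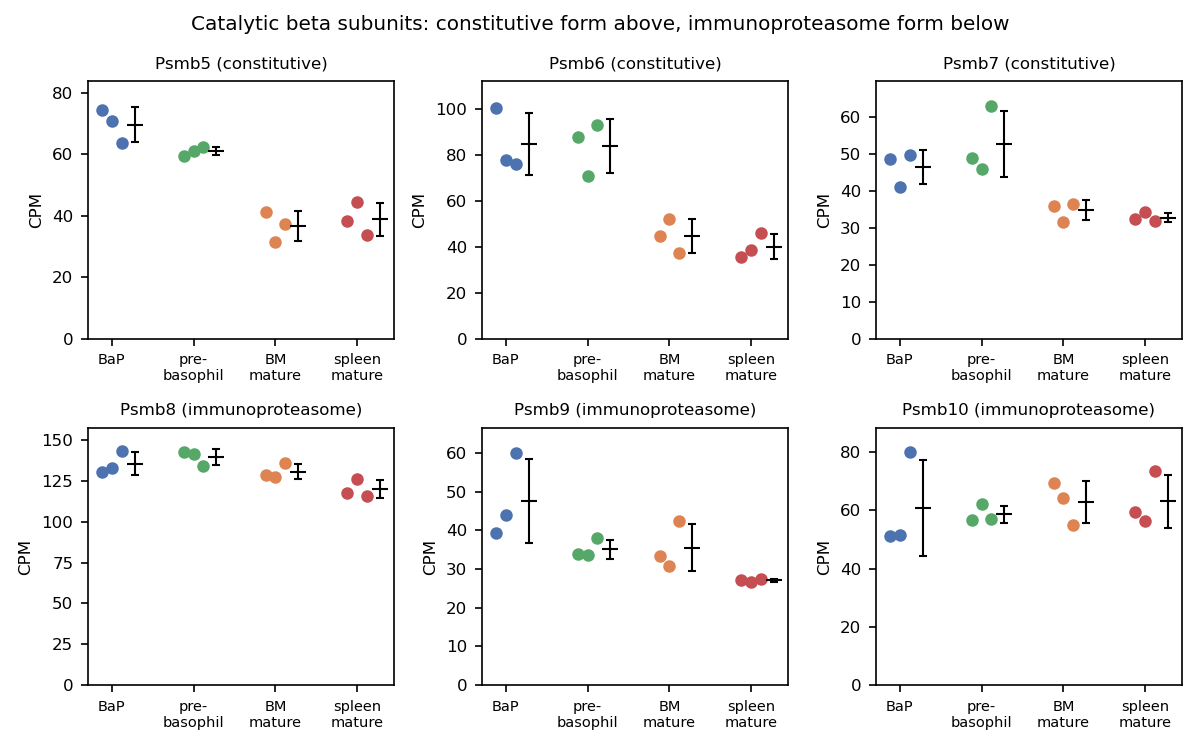
CPM of the 3 constitutive catalytic subunit genes (upper row) and of the immunoproteasome genes of the same ring position (lower row), with 1 point per library and the mean with its SD (n = 3) beside each group, on axes that start at 0. In the upper row the 6 BaP and pre-basophil points sit above the 6 mature points of each gene, and in the lower row the pre-basophil and BM mature points of each gene overlap, the spleen points of Psmb8 and Psmb9 are lowest, and BaP replicate 3 is the highest point of Psmb9 and Psmb10.

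The log2 ratio of an immunoproteasome gene to its counterpart within a library does not depend on library scaling and is given as a description. Psmb8 over Psmb5 was 0.96 ± 0.19 in the BaP, 1.19 ± 0.08 in the pre-basophil, 1.84 ± 0.19 in the BM mature and 1.64 ± 0.14 in the spleen mature libraries. The highest CLEC12Ahi library had 1.26 and the lowest mature library 1.51, so the stages did not overlap. Psmb9 over Psmb6 was -0.85 ± 0.51, -1.25 ± 0.16, -0.34 ± 0.48 and -0.56 ± 0.18, where pre-basophils, at most -1.08, lay below all mature libraries, at least -0.76, and BaP replicate 3 did not. Psmb10 over Psmb7 was 0.37 ± 0.31, 0.17 ± 0.29, 0.85 ± 0.23 and 0.94 ± 0.25, and the pre-basophil libraries, at most 0.43, again lay below the mature ones, at least 0.59. From pre-basophils to BM mature basophils the 3 mean log2 ratios thus differed by 0.65, 0.92 and 0.69, with the constitutive gene called in each pair and the immunoproteasome gene in none.

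**Figure D4:**
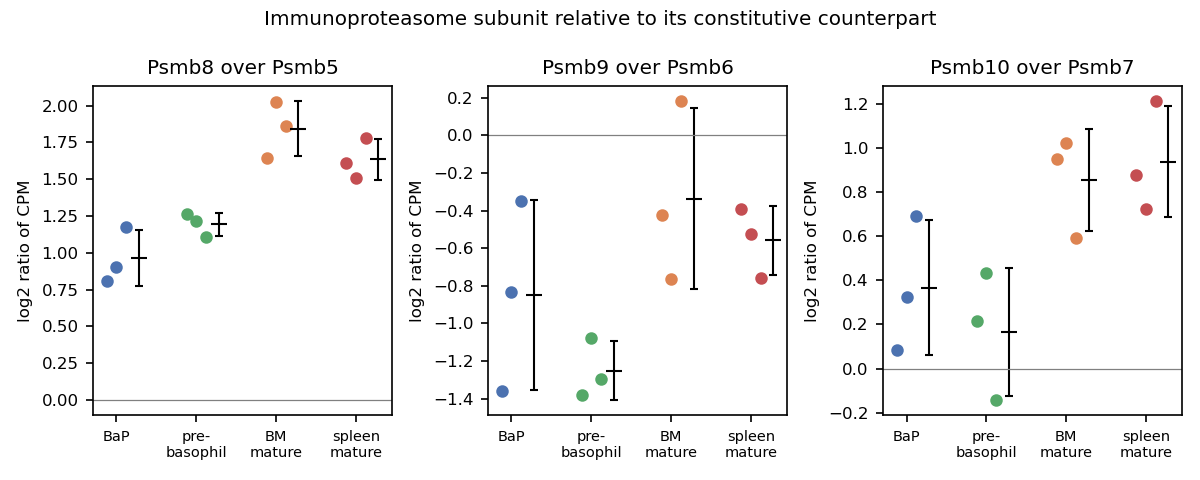
Log2 ratio of CPM of each immunoproteasome gene to its constitutive counterpart, with 1 point per library and the mean with its SD (n = 3) beside each group. The pre-basophil points lie below all mature points in the 3 panels, and the 3 BaP points do so for Psmb8 over Psmb5 but not, because of replicate 3, for the other ratios.

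Promoter sequence was examined for the letters of motifs known from proteasome regulation. The antioxidant response element, bound by factors of the NRF family that drive proteasome genes when degradation is impaired, was searched as TGACNNNGC, and the motif of interferon-responsive genes as GAAA, any 2 bases and GAAA, on both strands of the 300 bases from 250 before to 50 after the RefSeq start. RefSeq promoters on GRCm38.p6 were found for 41 of the 49 genes. Psma8, Psmb1, Psmb2, Psmb7, Psmc3, Psmd3, Psmd7 and Psmg2 had no entry in the table. The first motif was held by 6 of the 41 (14.6%), against 12.5% of 27025 promoters, and by 4 of the 21 that were called higher in pre-basophils, namely Psmb5, Psmb6, Psmd9 and Psmd12. The second was held by 5 of 41 (12.2%), namely Psmb3, Psmd4, Psmd9, Psme1 and Psmg4, against 3.49% of all promoters. Neither was in the windows of Psmb8, Psmb9 or Psmb10. The interferon-gamma activated site, searched as TTCNNNGAA, was in 3 of 41 (7.32%, all promoters 8.47%), Psmb8 among them, and the CCAAT box was in 14 of 41 (34.1%, all promoters 37.9%). These letters are matches, not measured binding.

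The 100 bases before the start are shown for the members with the first motif in that stretch that were called higher in pre-basophils, and for Psmb10 as an immunoproteasome gene without any of these motifs. Capitals mark TGACNNNGC. For Psmb10 the stretch was moved to bases 155 to 56 before the start, outside its annotated exon. The windows are chr14:54617996-54618095 on the minus strand for Psmb5, chr11:70525257-70525356 on the plus strand for Psmb6, chr5:123228090-123228189 on the plus strand for Psmd9, which lies in an intron of a longer annotated form of that gene, and chr8:105938448-105938547 on the minus strand for Psmb10. The last 27 bases of the Psmb5 stretch lie in an exon of the GENCODE annotation.
Psmb5: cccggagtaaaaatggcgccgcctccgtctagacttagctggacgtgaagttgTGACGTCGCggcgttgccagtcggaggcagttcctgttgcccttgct
Psmb6: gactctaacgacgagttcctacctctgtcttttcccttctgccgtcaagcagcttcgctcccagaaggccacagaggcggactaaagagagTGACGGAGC
Psmd9: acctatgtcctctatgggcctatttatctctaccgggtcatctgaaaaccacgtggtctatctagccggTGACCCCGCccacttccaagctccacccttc
Psmb10: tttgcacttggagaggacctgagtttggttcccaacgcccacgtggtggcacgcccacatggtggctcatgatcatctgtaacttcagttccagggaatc

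Among the 7 assembly chaperones tested, which bring the rings and the base together and leave the finished particle, 3 were called with a class median of 0.46. Psmg2, a partner in alpha ring assembly, was at 26.3, 26.8 and 28.5 CPM in the pre-basophil, 13.4, 12.5 and 15.9 in the BM mature, 31.3, 28.1 and 29.2 in the BaP and 12.3, 12.7 and 12.3 in spleen mature libraries. The lowest CLEC12Ahi library was at 26.3 CPM and the highest mature library at 15.9 CPM, and the means were 1.94-fold apart between pre-basophil and BM mature cells (log2 fold change 0.96, SE 0.14, adjusted p 0.000226). Psmd9, a base chaperone, was at 52.3, 54.5 and 53.3 and 28.3, 34.6 and 31.1 CPM (log2 fold change 0.77, SE 0.14, adjusted p 0.00105). Psmg1, the partner of Psmg2, was called at 0.59 with an adjusted p of 0.0493, and this call was lost when any 1 library was left out except BaP replicate 2 or 3 or BM mature replicate 1, with adjusted p up to 0.176. Psmd5, Psmd10, Psmg3 and Psmg4 were not called, with 0.46, 0.17, 0.35 and -0.02.

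Of the 6 activator and inhibitor genes 1 was called, which is near the 16.3% of all genes called higher in pre-basophils. This gene was Psme3, whose product activates the nuclear proteasome. It was at 53.4, 49.4 and 44.3 CPM in the pre-basophil and 32.1, 40.6 and 29.8 in the BM mature libraries, with BaPs higher still at 70.9, 66.7 and 62.2 (log2 fold change 0.52, SE 0.16, adjusted p 0.0277). This call was lost without either of pre-basophil replicates 1 and 2 or either of BM mature replicates 1 and 3, with adjusted p up to 0.119. Psme1 and Psme2, the interferon-responsive activator pair, were not called. Psme1 was at 153, 198 and 182 CPM in BaP, 183, 198 and 207 in pre-basophil, 225, 228 and 189 in BM mature and 189, 196 and 161 in spleen mature libraries, with overlap between all groups (-0.13, 95% interval -0.40 to 0.14). Psme2 was at 84.6, 88.6 and 122, 80.8, 93.2 and 103, 78.6, 79.4 and 99.4 and 78.9, 94.2 and 93.9 CPM (0.11, 95% interval -0.24 to 0.45). Psme2b is a near-identical copy of Psme2, and reads could be split between them, so both values are uncertain. Psme4, a large activator linked to histone degradation, was at -0.06, and the inhibitor gene Psmf1 at 0.26.

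The comparison of BaPs with pre-basophils asked whether the CD34+ and CD34- CLEC12Ahi cells differed. Of the 48 members 1 was called, Psmd7, beside 7.08% of all genes (2.79% higher and 4.29% lower in BaPs). An unadjusted p under 0.05 was reached by 7 members and by 3491 of the 15083 genes tested, which is a larger share. The median log2 fold change of the members was 0.06, with 0.02 over all genes. Psmd7, the lid partner of Psmd14, was at 47.5, 49.5 and 42.4 CPM in the BaP, 29.1, 26.5 and 32.1 in the pre-basophil, 23.2, 20.03 and 27.5 in the BM mature and 28.2, 30.2 and 34.9 in the spleen mature libraries. The BaP libraries stood above the other 9, and the pre-basophil range overlapped that of both mature groups, while the fold over pre-basophils was 1.58 (log2 fold change 0.66, SE 0.14, adjusted p 0.0167). The call was lost without pre-basophil replicate 1 or 2, with adjusted p of 0.0623 and 0.0905 for Psmd7. With the replicate number as a block, which pairs the BM libraries, Psmd7 and Psme3 were called (log2 fold change 0.67 and 0.45, adjusted p 0.0119 and 0.0406).

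Without BaP replicate 3, the library that stood apart, 4 members were called higher in BaPs, namely Psma6, Psmd1, Psmd7 and Psme3 (log2 fold changes 0.36, 0.49, 0.73 and 0.50). The share of all genes called in that fit is not given here. For Psma6 the BaP libraries were at 157, 149 and 103 CPM, of which the third was below the others, against 113, 115 and 129 in pre-basophils. Library size alone called 5 of the 48 tested members, among them Psmb9, beside 1620 of the 15083 genes tested, a similar share. It shifted the median over all genes to 0.23 and the share of called genes higher in BaPs from 39.4% to 79.6%. Psmb9 in the scaled fit was at 0.45 (0.10 to 0.80, adjusted p 0.114), where the highest BaP value came from replicate 3. Psmb8 and Psmb10 were at -0.04 and 0.07. Of the constitutive partners, Psmb5, Psmb6 and Psmb7 were at 0.19, 0.01 and -0.18. The highest members of their classes per kb, Psma7, Psmb4, Psmc3, Psmd4, Psmd8 and Psme1, lay between -0.14 for Psme1 and 0.06 for Psmc3, and none was called.

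Mature basophils of the spleen were compared with those of the BM to see whether tissue made a difference at the mature stage. Here 3 of the 48 members were called (6.25%), all lower in the spleen, beside 7.83% of all genes (3.16% higher and 4.67% lower in the spleen). An unadjusted p under 0.05 was reached by 12 members and by 3746 of the 15083 genes tested, a similar share. Psma2 (chromosome 13, 14613240 to 14674236), an alpha subunit, was at 73.0, 62.2 and 62.8 CPM in spleen and 106, 101.4 and 100.7 in BM mature basophils, with 138, 122 and 137 in the pre-basophil and 135, 129.7 and 122 in the BaP libraries. Its 4 groups descended from the CLEC12Ahi cells to BM and then spleen mature cells, and the spleen was 0.642 of the BM level (log2 fold change -0.64, SE 0.11, adjusted p 0.00596). Psmb3 was at 62.9, 66.7 and 69.6 and 88.5, 84.1 and 86.9 CPM (log2 fold change -0.38, SE 0.11, adjusted p 0.0427), and Psmb4 at 93.8, 113 and 107 and 137, 144 and 139.7 CPM (log2 fold change -0.42, SE 0.12, adjusted p 0.0461). The 3 genes did not overlap between the mature groups.

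The calls of Psmb3 and Psmb4 were lost on leaving out a library in 10 of the 12 such fits, which left Psma2 alone. Leaving out BaP replicate 3 raised the number of called members to 6, with Psma1, Psmb9 and Psmd10 added. The share of all genes called in the fit without BaP replicate 3 is not given here. Whether this rise was particular to the proteasome genes was therefore not tested. Psma2 was called in all 21 alternatives, though the gene overlaps AW209491 by 8943 bases on the same strand, and reads could be exchanged. By class, 6 of 7 alpha and 6 of 7 standard beta subunits had negative log2 fold changes with medians of -0.32 and -0.26, while 5 of 6 ATPases and 3 of 3 other base subunits had positive ones with medians of 0.07 and 0.17, and the median over all genes was 0.01. The difference between the core and the base was not tested. Psmb8, Psmb9 and Psmb10 were at -0.12, -0.40 and 0.01, and Psmb5, Psmb6 and Psmb7 at 0.09, -0.16 and -0.08 on the log2 scale, none of them called. Psme1, Psme2, Psme3 and Psme4 were at -0.24, 0.05, 0.24 and 0.39. Library size alone moved the median of all genes to 0.14 and the share of called genes higher in the spleen from 40.4% to 60.6%. It called Psma2 lower and Psmd7 higher, beside 1085 of the 15083 genes tested.

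**Figure D5:**
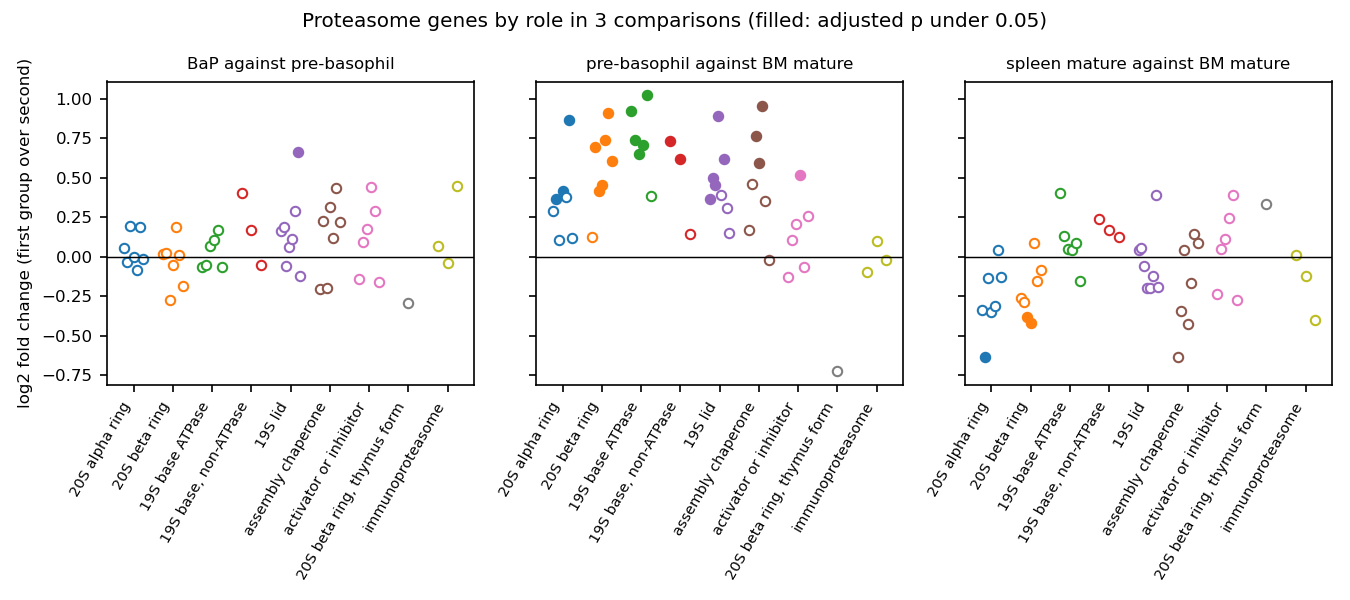
Log2 fold change of each tested proteasome gene, grouped by role, in the 3 pairwise comparisons, first group over second. Filled points are called members. There is 1 filled point for BaP against pre-basophil, 25 for pre-basophil against BM mature and 3, all below 0, for spleen mature against BM mature.

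The comparisons share groups, so their values are given side by side and not correlated. From BaP to pre-basophil to BM mature to spleen mature the mean of Psmc5 went from 30.4 ± 0.750 to 27.0 ± 2.63, 13.3 ± 1.09 and 14.2 ± 0.760 CPM, a single step between the CLEC12Ahi and mature stages. Psmd1, at 51.5 ± 4.76, 38.7 ± 3.70, 23.1 ± 3.02 and 27.5 ± 2.15 CPM, was highest in BaPs. Psmb4, at 184 ± 24.9, 192 ± 4.60, 140.1 ± 3.46 and 105 ± 9.89 CPM, had a further step in the spleen. Psmb8, at 136 ± 6.89, 139.6 ± 4.70, 130.5 ± 4.57 and 120.0 ± 5.60 CPM, stayed within a narrower range of means.

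Genes that act with the proteasome but carry no Psm symbol were read from a list of 22, of which 21 were tested and Paaf1 had no row under that symbol. In pre-basophils against BM mature basophils 5 were called higher and 1 lower, with a median of 0.28, and this count of 6 in 21 is near the 27.3% called among all genes. Adrm1, a ubiquitin receptor of the 19S particle, was at 46.1, 33.8 and 41.4 CPM in the pre-basophil and 21.6, 24.0 and 28.3 in the BM mature libraries (log2 fold change 0.70, SE 0.14, adjusted p 0.00223). Txnl1, a thioredoxin-like protein bound to the lid, was at 86.1, 70.1 and 70.4 and 41.7, 45.1 and 36.7 CPM (log2 fold change 0.88, SE 0.17, adjusted p 0.00188). The other genes called higher were Uchl5, a deubiquitinase recruited by the Adrm1 product, at 0.60, the shuttle receptor Rad23b at 0.42 and the segregase Vcp at 0.41. Zfand5, which encodes a zinc finger protein that stimulates the proteasome, was lower at -0.37. Pomp, the core maturation factor, was at 52.2 ± 4.08 and 44.2 ± 7.03 CPM and was not called. Nfe2l1, which encodes the NRF factor that drives proteasome genes, was at 30.4 ± 2.88 CPM in the pre-basophil and 28.7 ± 0.546 in the BM mature libraries, not called, and at 42.3 ± 6.04 CPM in the spleen, where it was called higher than in the BM (0.56, adjusted p 0.0289). In that comparison Ecpas was also called higher at 0.42 and Zfand2a lower at -0.86, and in BaPs against pre-basophils Ubqln4 was called higher at 0.74.

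Of 7 genes of class I peptide supply and its regulators reported here, 2 were called between pre-basophil and BM mature cells, also near that share, and none in the other pairwise comparisons. Irf1, a transcription factor that drives immunoproteasome genes, was at 81.9, 105 and 111 CPM in the pre-basophil and 154, 186 and 213 in the BM mature libraries, so that it was lower in pre-basophils (log2 fold change -0.89, SE 0.21, adjusted p 0.00594). Erap1, the peptide-trimming aminopeptidase of the endoplasmic reticulum, was higher at 0.34. Tap1, which lies beside Psmb9 on chromosome 17 and overlaps it by 212 bases on the opposite strand, was at 42.8 ± 4.74 and 47.7 ± 6.33 CPM and was not called, nor were Tap2, Tapbp, B2m and Nlrc5.

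Of 4 genes for ubiquitin and its activating enzymes reported here, Ubb, a stress-responsive ubiquitin gene, was called lower in pre-basophils than in BM mature basophils. It was at 5100, 4210 and 3002 CPM in the BaP, 6676, 5357 and 6881 in the pre-basophil, 12955, 8367 and 13332 in the BM mature and 10935, 7818 and 13944 in the spleen mature libraries. The 6 CLEC12Ahi libraries lay below the 6 mature ones, and the mature groups overlapped (log2 fold change -0.87, SE 0.24, adjusted p 0.0152 for pre-basophils against BM mature basophils). The ubiquitin-ribosomal fusion gene Rps27a was called higher in BaPs than in pre-basophils at 0.43, and Uba1 and Uba6 were not called in any pairwise comparison. The dissociation list was also lower in the CLEC12Ahi stages, and its part in the difference of Ubb was not tested.

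Some members share sequence or genomic position with other genes, and the sources used here do not say whether counting used the strand. The count table also has rows named as pseudogenes of Psma5, Psmb5, Psmb6 and Psmb7. Psmb8, Psmb10, Psmb7 and Psmd9 overlap Gm20496, Gm16156, Nek6 and Hpd on the opposite strand. On the same strand, Psma2 overlaps the protein-coding gene AW209491 by 8943 bases and Psmd1 overlaps Gm21972 by 5515. Psmg3 overlaps Gm26938 by 2816 bases and Psme2b overlaps Gm12185 by 837, also on the same strand. Other overlaps are annotated as well, and reads of overlapping genes could be exchanged.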

How the data were processed

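Bulk RNA sequencing libraries were made by the authors from poly(A) RNA captured on beads from lysed sorted cells, followed by whole-transcriptome amplification by the TAS-Seq chemistry, enzymatic fragmentation and Illumina sequencing. Per the submitters' processing notes, cutadapt 3.4 and Bowtie2 2.4.2 were used. The methods give GRCm38 (release 101) and the processing notes GRCm39, so the build behind the table is not certain, and coordinates here are those of GENCODE M21 on GRCm38. Strand use and the treatment of multi-mapping reads in counting are not given in the sources used here. The deposited table holds raw counts per gene symbol, not normalized, for 32227 genes in 12 libraries, with totals of 3596108 to 8151030 counts. Molecules carry no identifiers in these counts, so floors cover counting error only, and 3 counts, the most that a count of 0 allows, equal 0.29 to 0.955 CPM.

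Counts were filtered by filterByExpr, which kept 15083 genes, scaled by TMM and tested over all 4 groups by the quasi-likelihood test of edgeR 4.0.16 (limma 3.58.1, R 4.3.3), with Benjamini-Hochberg adjustment over all genes tested and a threshold of 0.05. Intervals are 95% intervals of the model. CPM per kb divides by the length of the gene's principal transcript in GENCODE. The code was tested on simulated data. Library pairs of a group differed beyond sampling noise (chi-square per degree of freedom of 4.16 to 35). Samples were grouped by the labels. Members and gene lists were chosen with earlier results of these data known. Named were Psmb5 to Psmb10, Psme1 to Psme4, in each pairwise comparison up to 12 called members per direction with the lowest adjusted p, the most abundant member of each role class and called members of opposite sign to their class. Called genes of the partner, class I and ubiquitin lists were also named. Some genes of the class I and ubiquitin lists are not reported here. Members outside this rule were named by their class, after their values were seen. Same-numbered BM libraries deviated together (9 pairs, correlations of 0.125 to 0.262, each highest with its own number), from which the pairing was taken. Pairs with spleen libraries had weaker correlations (0.0004 to 0.0899). Of all 18 pairs 15 were highest with their own number, among them every pair of pre-basophil and spleen libraries. Alternatives were other scalings, no filter, DESeq2 1.42.0, limma-voom, a replicate block, fits of 2 groups and leaving out each library. The replicate block on the BM libraries alone was chosen after seeing the data.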

Additional observations from a re-analysis of the deposited data

How the results depend on the processing

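Pre-basophils against BM mature basophils gave 25 called members and 19 to 35 under the alternatives, all higher in pre-basophils except Psmb11. Psmb11 was called lower in 6 of the 22, namely upper-quartile scaling, both replicate blocks, the fit of the 2 groups alone and the fits without BaP replicate 3 or spleen mature replicate 2 (adjusted p of 0.0194 to 0.0475). Library size alone gave 35, no filter 20, and leaving out 1 library 19 to 29. None of the 25 changed sign under any of the 22 alternatives. The test among the 4 groups gave 37 and 33 to 45. BaPs against pre-basophils gave 1 called member, 5 with library size alone, 2 with the replicate block, 2 with that block in the BM libraries alone, and 0 to 4 on leaving out 1 library (0 without pre-basophil replicate 1 or 2, 4 without BaP replicate 3). Spleen against BM mature basophils gave 3, 1 with DESeq2 size factors, 1 with no filter, and 1 to 6 on leaving out 1 library. The replicate block gave 27 calls for pre-basophils against BM mature basophils, 3 for the spleen against the BM and 37 among the 4 groups, and added Psme3 in BaPs. The cause of these shifts was not tested, and the share of all genes called in each fit is not set beside these counts. No immunoproteasome gene was called in pre-basophils against BM mature basophils under any scaling, and Psmb9 was called higher in BaPs than in pre-basophils under library size alone. Precision is limited by 3 pools a group, by the depth of libraries of 3596108 to 8151030 counts and by BaP replicate 3, which held more transcripts of other cell types.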
